A study of Mus musculus with 8 samples.

Results

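The mitochondrial ribosomal protein genes encode the proteins of the ribosome inside mitochondria. They were taken as every array probe whose annotated symbol starts with Mrpl (large subunit) or Mrps (small subunit) followed by a digit. This gave 76 genes, 48 Mrpl and 28 Mrps, of the 19057 symbols on the array, read by 132 probes. Each gene was represented by its brightest probe over all arrays, and the other probes of 33 genes served as a check. All 76 gene identifiers were found in a RefSeq gene table, which changed 0 symbols.

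The cells were pre-iPSCs from female 129/MF1 mice, taken at day 0, and their RNA had been hybridised to Illumina arrays. These cells are stalled partway through reprogramming and were derived from neural stem cells. The 8 arrays formed 4 groups of 2, and every group carried stably integrated PiggyBac vectors with a CAG promoter, an Oct4-GFP-IRES-puro reporter, and had passed drug selection in serum with LIF. The groups were EV (empty vectors only), Nanog (Nanog with an empty vector), Sin3a (Sin3a with an empty vector) and Nanog+Sin3a (both genes). Nanog is a transcription factor of pluripotent cells and Sin3a a scaffold protein of a histone deacetylase complex, and the series title asks whether they cooperate. Nothing in the labels says that both arrays of a group came from separate cultures, so p-values here measure the spread between arrays, which may be technical.

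The mitochondrial ribosome translates the messages of mitochondrial DNA, which encode core subunits of the respiratory chain and of ATP synthase. Its proteins are encoded in the nucleus, made in the cytosol and imported, and its small subunit decodes the message while its large subunit forms the peptide bond. Many of its proteins descend from bacterial ribosomal proteins and others exist only in mitochondria; pluripotent cells are known for relying on glycolysis more than many differentiated cells do. By these classes, the array held 30 large-subunit genes with a bacterial counterpart and 20 that are mitochondrion-specific, with 16 and 10 in the small subunit. Mrps30 and Mrps18a are named for the small subunit but are parts of the large one, and were classed there.

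Short motifs were found at a higher share of these genes' promoters than of all promoters, which is why a few are shown here; this is a description, with no test. In RefSeq windows of 300 bases (250 before and 50 after a start site, GRCm38.p6), 67 of the 76 genes had 73 windows. The motif CCGGAAG, bound by ETS factors such as GABP, was found on either strand in 26 of these windows (35.6%), against 8.86% of all 32851 windows in the table. GCGCATGCG, a core of sites for the nuclear respiratory factor NRF1, was in 7 (9.59%) against 1.75%, and AAGATGGCG, bound by YY1, was in 8 (11%) against 1.40%. At least 1 of the 3 motifs lay in 36 windows (49.3%) against 11.4%. These are matches of letters, not shown binding sites. The stretches below belong to 8 genes whose RNA differed between arrays with and without Nanog (described further on). They run 5′ to 3′ on the gene's own strand, and capitals mark the motif or its reverse complement.

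Mrps22, chr9:98601664-98601710, minus strand, ETS: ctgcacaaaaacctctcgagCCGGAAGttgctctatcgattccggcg
Mrpl3, chr9:105053229-105053275, plus strand, ETS: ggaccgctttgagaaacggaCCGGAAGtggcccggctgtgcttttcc
Mrpl43, chr19:45006428-45006518, minus strand, ETS: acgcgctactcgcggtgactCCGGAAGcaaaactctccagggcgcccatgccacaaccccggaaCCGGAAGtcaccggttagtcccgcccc
Mrpl52, chr14:54426842-54426937, plus strand, ETS: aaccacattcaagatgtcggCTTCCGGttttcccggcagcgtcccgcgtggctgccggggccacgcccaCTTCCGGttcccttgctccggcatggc
Mrps26, chr2:130563723-130563769, plus strand, ETS: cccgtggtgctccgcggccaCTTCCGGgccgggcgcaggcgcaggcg
Mrpl10, chr11:97041427-97041475, plus strand, NRF1: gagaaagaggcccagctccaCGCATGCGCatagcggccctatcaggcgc
Mrps11, chr7:78783013-78783041, plus strand, YY1: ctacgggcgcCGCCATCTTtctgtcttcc
Mrpl42, chr10:95501904-95501932, minus strand, YY1: agattgaagcAAGATGGCGagcgcgcggt

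The 5 genes shown with an ETS match include Mrpl3 and Mrps22, which were higher in arrays with Nanog, and Mrpl43, Mrpl52 and Mrps26, which were lower. The 3 shown with an NRF1 or YY1 match (Mrpl10, Mrps11 and Mrpl42) were higher, too few to read an order from. The 3 windows of Mrpl2 held none of the 3 motifs. Mrps34 and Mrpl38, which also differed, had no window to search.

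Start sites that face away from those of a neighbouring gene were also common among the members. Within 500 bases, 23 of 67 genes (34.3%) had such a neighbour, against 2944 of the 27025 genes in the table (10.9%). In 1 of these pairs both genes were members, Mrpl46 and Mrps11, whose starts lie 42 bases apart. The YY1 match shown for Mrps11, at position -108 from its start, is therefore past the Mrpl46 start, within that gene. Other neighbours include Twnk, the mitochondrial DNA helicase (116 bases from Mrpl43), Sars2, the mitochondrial seryl-tRNA synthetase (147 bases from Mrps12), and Ndufb5, a complex I subunit (308 bases from Mrpl47).

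The deposited intensities were raised to 16 where lower (the floor) and compared as log2 values. Each array had 16157 to 16365 probes above the floor, but the second Sin3a array was noisy at low signal, so comparisons that do not need it used the other 7 arrays. Those that need it used bright features only, whose mean log2 value over 8 arrays was above 9. The Nanog probe read 364.8 and 485.8 in the Nanog arrays and 289.5 and 285.2 in the Nanog+Sin3a arrays, and was below 0 in the other 4. The Sin3a probe read 1182.1 and 1141.6 in the Sin3a arrays and 1484.7 and 1483.3 in the Nanog+Sin3a arrays, against 261.8 to 472.5 elsewhere. Cell type markers are dim, so they are given for the 7 arrays other than the second Sin3a array. Of 11 pluripotency markers, Pou5f1, Klf4, Sall4 and Dppa5a were above the floor on all 7, and Utf1, Dppa3 and Esrrb on none (summed level 1279.2 to 1702.1). Of 7 neural stem cell markers, Egfr and Nes were above it on all 7, and Pax6, Fabp7, Olig2 and Gfap on none (432 to 817.7). Of 6 fibroblast markers only Thy1 was, with Col1a2 and Col3a1 on none (239.6 to 560.7). None of 3 endothelial markers or 1 blood marker was above it on all 7 (10.4 to 52.8 and 0 to 25). In the second Sin3a array Nes and Thy1 read 0.6 and 11.7, while Gfap, Sox1 and Pecam1 read 241.2, 165.4 and 183.3. Fewer cells of a type and less RNA per cell cannot be told apart in such bulk samples.

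Most of the mitochondrial ribosome was detected in every group. Of the 76 genes, 73 were above the floor in at least 2 of the 7 arrays and were tested, and 57 of these were bright. Mrpl19, Mrpl32 and Mrps14 were not above the floor in 2 arrays and were left out of the tests. By class, the genes tested and bright numbered 28 and 23 for the large subunit with a bacterial counterpart, and 20 and 14 for its mitochondrion-specific proteins. In the small subunit they numbered 15 and 12, and 10 and 8. The probes with the strongest signal were those of Mrps24, Mrpl17, Mrpl13, Mrpl12 and Mrpl28, at mean log2 values of 11.77, 11.68, 11.36, 11.35 and 11.09. At the other end, Mrpl45 and Mrpl57 averaged 4.89 and 4.53, and Mrps14, Mrpl19 and Mrpl32 stood at 4.04, 4 and 4, the last being the floor. Signal strength differs between probes for reasons other than the amount of RNA, so this order does not rank the transcripts.

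The genes varied little between groups. Among the 57 bright genes, the gap between the highest and the lowest of the 4 group means had a median of 0.27 (log2), as it did among all 2300 bright features. Large gaps were fewer than elsewhere: 2 of 57 exceeded 0.5 (3.51%), against 259 of 2300 (11.3%), and 0 exceeded 1, against 23 (1.00%). The 2 were Mrps34 (0.64) and Mrpl52 (0.58), followed by Mrpl1 (0.47), Mrpl50 (0.46) and Mrpl2 (0.45). Among the 73 genes in 7 arrays, 8 exceeded 0.5 (11%), against 35.8% of 12806 features, and 0 exceeded 1, against 7.18%. These sets differ in brightness: 57 of the 73 genes were bright, against 2300 of the 12806 features. Dimmer features are noisier, with a median SE for Nanog against EV of 0.17 over all features and 0.12 over the genes. The comparison between sets is a description, with no test.

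**Figure D1:**
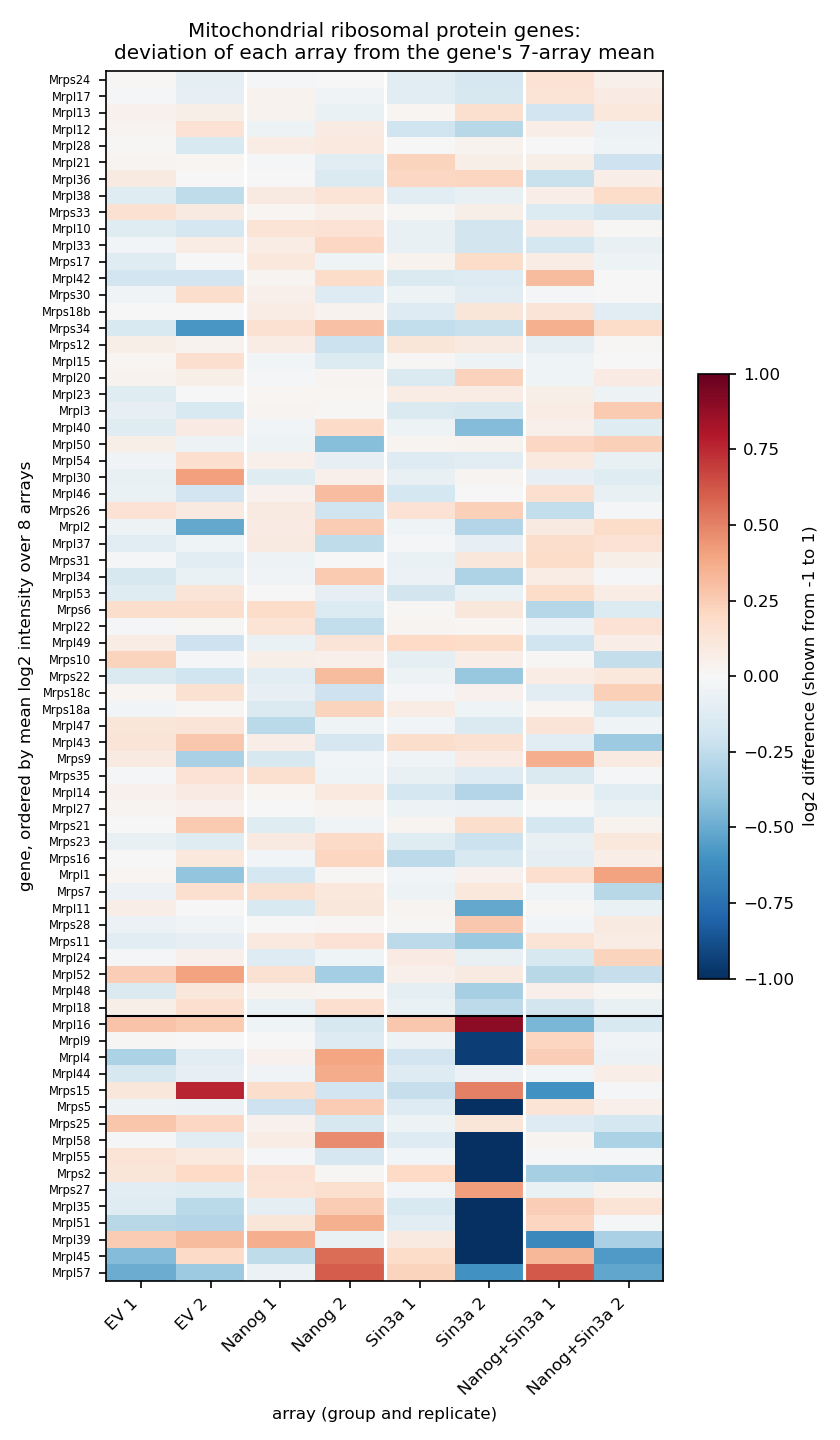
Each row is 1 of the 73 tested genes, ordered by mean log2 intensity, and each column is an array; colour gives the log2 difference from the gene's mean over the 7 arrays other than the second Sin3a array, shown from -1 to 1. The black line separates the 57 bright genes from the 16 dimmer ones, and the dark blue cells in the second Sin3a column lie below it.

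The dim genes show what the second Sin3a array does at low signal. Mrps5, a small-subunit protein, read 221.2 in the first Sin3a array and 15.5 in the second, and Mrpl55 read 193.2 and 5.9. Of the 16 tested genes that were not bright, 8 differed by more than 1 (log2) between these arrays, with a median of -1.04 over the 16. All 57 bright genes stayed between -0.54 and 0.37 there. The corresponding median absolute gap of bright genes was 0.10 in Sin3a, 0.11 in EV, and 0.13 in both Nanog and Nanog+Sin3a.

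Arrays with the Nanog transgene (4, from Nanog and Nanog+Sin3a) were set against those without (4, from EV and Sin3a) to ask what Nanog changes whatever the Sin3a level. Here 11 of the 57 bright genes passed the test, 8 higher and 3 lower. That is 19.3% of the members, against a background of 26.5% of all bright features called, 13.1% higher and 13.3% lower, so the members' share was below that of all features. The median difference of the members was 0.01, as it was for all bright features. Every change was small: the largest was 1.46-fold, for Mrps34. Some cell type markers moved with the same contrast in the 7 arrays. The neural stem cell markers summed to 432 to 523.6 in the 4 arrays with Nanog and 722.1 to 817.7 in the 3 without, mostly through Egfr. The fibroblast markers summed to 447.9 to 560.7 with Nanog and 239.6 to 251.5 without, mostly through Thy1. The pluripotency sums overlapped, at 1279.2 to 1563 with Nanog and 1537.8 to 1702.1 without. Among those markers Sall4 was lower with Nanog (88.5 to 171.1) than without (226.1 to 292.9). The part of these in the members' differences was not tested. All tests are limma's with Benjamini-Hochberg adjustment over all features of the fit, two-sided, at 0.05.

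Mrps34, a mitochondrion-specific protein of the small subunit, moved most. Its probe read 1290.2 and 961 in EV and 1209.6 and 1235 in Sin3a, against 1594 and 1759 in Nanog and 1841 and 1633 in Nanog+Sin3a. The 4 arrays with Nanog were all above the 4 without, and the second EV array was the lowest. The difference was 0.55 (SE 0.09, 95% interval 0.35 to 0.74, adjusted p = 0.000286). It passed in each of the 8 fits that left out 1 array. Mrps34 had no other probe to set beside this one.

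Mrps11, a platform protein of the small subunit with a bacterial counterpart, had a second bright probe that went the same way. It read 621 and 632 in EV and 559 and 516 in Sin3a, against 714 and 738.5 in Nanog and 733 and 702 in Nanog+Sin3a. All 4 arrays with Nanog were higher, by 0.31 (SE 0.09, adjusted p = 0.0146). Its other bright probe read 482.2 to 495.5 in the 4 arrays without Nanog and 570.3 to 752.0 in the 4 with it, a difference of 0.39. Mrpl46, the large-subunit gene on the other side of its start site, differed by 0.22 (SE 0.09, adjusted p = 0.0732) and did not pass.

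Mrps22, a mitochondrion-specific small-subunit protein, read 847 and 816 in EV and 903 and 719.5 in Sin3a, against 873 and 1168 in Nanog and 986 and 1009.6 in Nanog+Sin3a. The difference passed (0.29, SE 0.10, adjusted p = 0.0359), but the first Nanog array lay below the first Sin3a array, so the groups overlapped. In the same class Mrps26 was lower with Nanog. It read 1262 and 1215.2 in EV and 1264 and 1346.5 in Sin3a, against 1215.2 and 998 in Nanog and 965 and 1128 in Nanog+Sin3a. The difference was -0.25 (SE 0.09, adjusted p = 0.0429), with the second EV and the first Nanog array at the same value. The arrays of Mrps22, Mrps26 and Mrpl52 overlapped. Mrps22 and Mrps26 still come under the rule for named genes, through second probes of opposite sign. Mrpl52 falls outside the rule and was chosen after its values were seen.

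In the large subunit, 3 genes with a bacterial counterpart were higher with Nanog. Mrpl2, which lies near the site of peptide bond formation, read 1144 and 833 in EV and 1149 and 971 in Sin3a, against 1255.5 and 1417.5 in Nanog and 1261 and 1349 in Nanog+Sin3a. The arrays did not overlap (0.38, SE 0.10, adjusted p = 0.00901), but both EV arrays differed from each other by more than this. Mrpl10, at the base of the stalk that recruits translation factors, read 1639.6 and 1575 in EV and 1694 and 1573 in Sin3a, against 1959.8 and 1969 in Nanog and 1884 and 1791 in Nanog+Sin3a. Mrpl3 read 1220.2 and 1159.7 in EV and 1167 and 1157 in Sin3a, against 1315 and 1301 in Nanog and 1356 and 1545 in Nanog+Sin3a. Neither gene's arrays overlapped, and both differences were 0.23 (SE 0.07 and 0.08, adjusted p = 0.0271 and 0.0385).

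The mitochondrion-specific proteins of the large subunit split evenly, with 2 higher and 2 lower of 14. Mrpl42 read 1449.9 and 1449 in EV and 1496 and 1515 in Sin3a, against 1681 and 1874.5 in Nanog and 2061 and 1659 in Nanog+Sin3a. Mrpl38 read 1871 and 1707 in EV and 1890.4 and 1931 in Sin3a, against 2165 and 2237 in Nanog and 2130.3 and 2306.5 in Nanog+Sin3a. In both, every array with Nanog was above every array without it, by 0.29 (SE 0.08, adjusted p = 0.0136) for Mrpl42 and 0.26 (SE 0.07, adjusted p = 0.0149) for Mrpl38.

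The other pair was lower. Mrpl43 read 911 and 1008 in EV and 943 and 928 in Sin3a, against 877 and 745 in Nanog and 770.4 and 651 in Nanog+Sin3a. Its arrays did not overlap (-0.32, SE 0.09, adjusted p = 0.0136). Mrpl52 read 665 and 738 in EV and 579 and 595 in Sin3a, against 622 and 441 in Nanog and 462 and 477 in Nanog+Sin3a. Its first Nanog array lay above both Sin3a arrays, and the difference was -0.37 (SE 0.11, adjusted p = 0.0185).

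By class, 3 rose and 0 fell of the 23 bright large-subunit genes with a bacterial counterpart, and 1 rose and 0 fell of 12 such genes in the small subunit. Among mitochondrion-specific genes it was 2 and 2 of 14 in the large subunit and 2 and 1 of 8 in the small one. These are 13.0% and 8.33% for the genes with a bacterial counterpart and 28.6% and 37.5% for the mitochondrion-specific ones, on either side of the 26.5% of all bright features. Differences between the classes were not tested. The count of 11 depended on single arrays. It was 7 when EV array 1 was left out and 1 when EV array 2 was, 15 and 8 for Nanog arrays 1 and 2, 6 and 4 for Sin3a arrays 1 and 2, and 5 and 7 for Nanog+Sin3a arrays 1 and 2. The share of all bright features called moved too, from 13.5% when EV array 2 was left out to 33.3% when Nanog array 1 was. The 7-array fit over all features called 3 members and 8.12% of features.

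**Figure D2:**
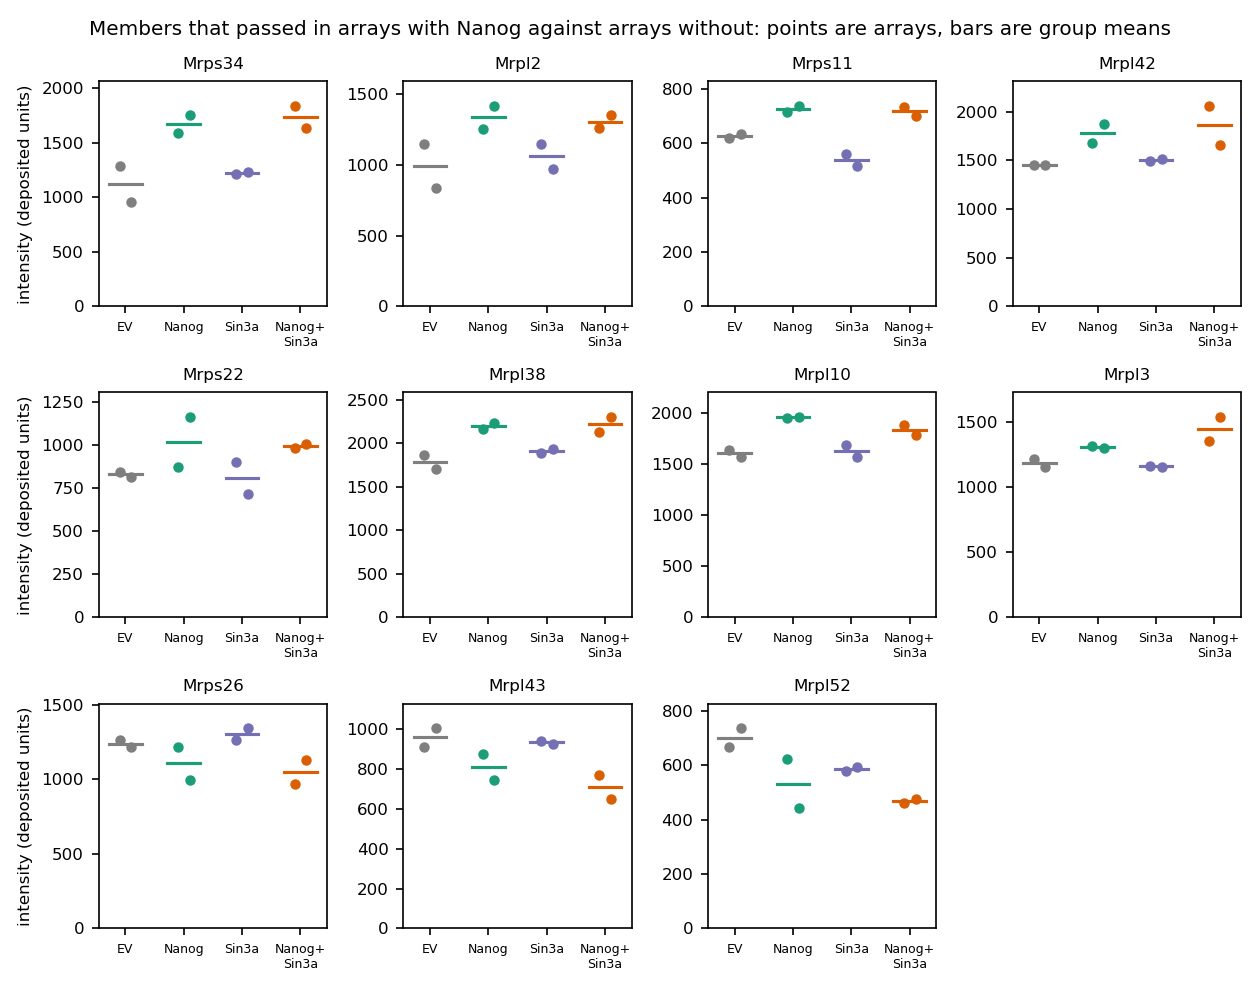
Intensity in deposited units on an axis from 0 for the 11 genes that passed between arrays with and without Nanog; each point is an array and each bar the mean of a group's 2 arrays. The 4 arrays with Nanog (green and orange) lie apart from the 4 without in all panels but those of Mrps22, Mrps26 and Mrpl52. The genes were picked by their difference in these same arrays, so the separation is not further evidence.

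Of these calls, only that of Mrps11 was matched in size by a second probe. Besides Mrps11, 3 called genes had another bright probe, and it did not move with the first: -0.02 for Mrpl10 (whose brightest probe gave 0.23), 0.05 for Mrpl43 (-0.32) and 0.03 for Mrps26 (-0.25). The other Mrpl43 probe read 492 to 595 in the arrays without Nanog and 498 to 710.3 in those with it. Dimmer second probes, compared in 7 arrays, gave -0.12 for Mrpl3 and 0.02 for Mrpl38. That of Mrps22 read 33.5, 28 and 31.1 in EV and the first Sin3a array and was below the floor in all 4 arrays with Nanog. It was thus lower with Nanog, opposite to the brightest probe. Its size is not given, since it rests on the floor. Of the 10 other bright probes, 6 had the same sign as the brightest probe of their gene.

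Nanog against EV asks what Nanog alone changes. This comparison and the next use the same EV arrays, and both use arrays of the contrast above. None of the 73 genes passed in 7 arrays, where 2.69% of all 12806 features were called. At an unadjusted p under 0.05 there were 12 (16.4%), against 19.7% of all features. Differences ran from -0.45 to 0.70 with a median of 0.02, and 37 were above 0 and 36 below. The 3 largest were Mrpl57, Mrps34 and Mrpl51. Mrpl57 read 17.2 and 18.9 in EV and 23.4 and 36.9 in Nanog, just above the floor, a difference of 0.70 (SE 0.40, adjusted p = 0.395). Mrps34 differed by 0.59 (SE 0.15, 0.107). Mrpl51 read 77.8 and 76.7 in EV and 102.7 and 120.7 in Nanog, a difference of 0.53 (SE 0.16, adjusted p = 0.152).

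On the bright features of 8 arrays, 2 of 57 genes passed for Nanog against EV, both higher (3.51%), against 9.65% of features, 4.57% higher and 5.09% lower. These were Mrps34 (0.59, SE 0.13, adjusted p = 0.00832) and Mrpl2 (0.45, SE 0.14, 0.0462). The 95% intervals of all 57 genes lay within -1 and 1 in this comparison, so a 2-fold change of a bright member was outside every interval.

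**Figure D3:**
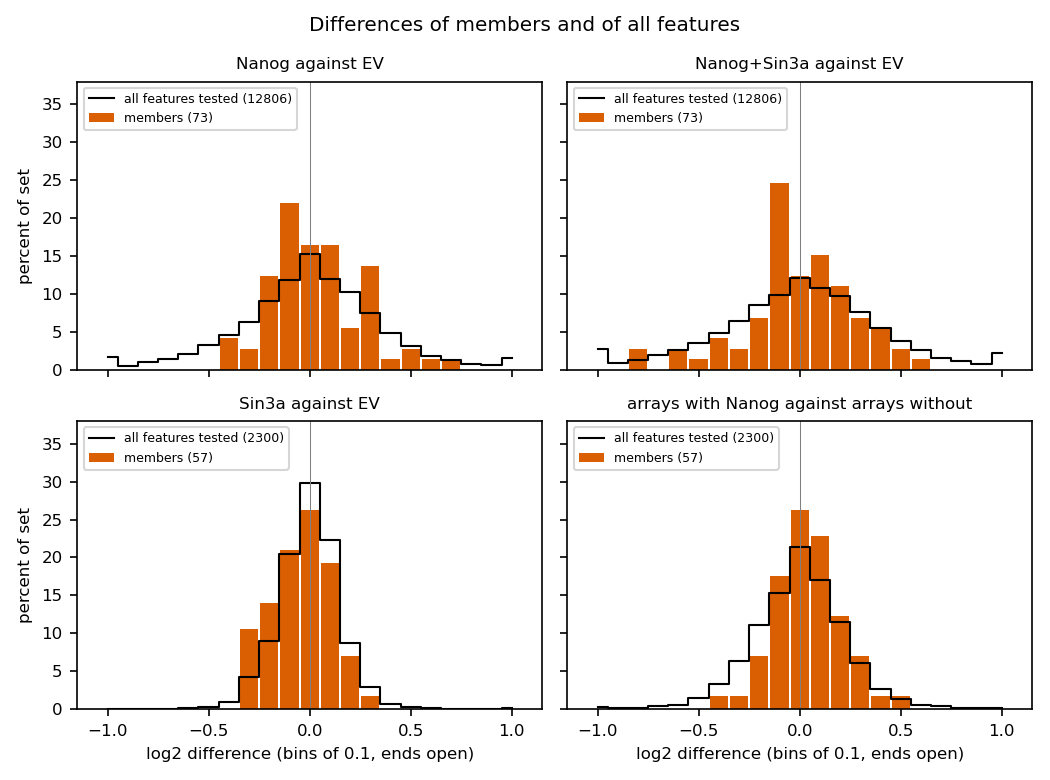
Share of the members (orange bars) and of all features tested (black line), in percent, by log2 difference in bins of 0.1 with open end bins, for 4 comparisons. The members centre near 0 in each panel, and none lies beyond -1 or 1.

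Nanog+Sin3a against EV asks what both genes change together. In 7 arrays 1 of 73 genes passed (1.37%), where 7.42% of all features did, 3.78% higher and 3.64% lower. It was Mrpl16, a large-subunit protein with a bacterial counterpart that lies near the incoming tRNA. Its probe read 519.8 and 510.3 in EV, 414 and 382 in Nanog, 515 and 794 in Sin3a, and 311 and 384 in Nanog+Sin3a. Both Nanog+Sin3a arrays were below both EV arrays. Arrays of these 2 groups lay apart, in either direction, in 58.9% of the 73 genes and 54.7% of all features. The difference of Mrpl16 was -0.58 (SE 0.12, adjusted p = 0.0444). The call was kept in 1 of 7 fits that left out an array, the one lacking Sin3a array 1. The adjusted p ran from 0.0291 to 0.437 over its alternatives.

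Several other genes came near the threshold without passing. Mrps2, a small-subunit protein, read 182 and 192 in EV, 185 and 168.5 in Nanog and 133 and 132 in Nanog+Sin3a, a difference from EV of -0.50 (SE 0.12, adjusted p = 0.0560). Mrps34 differed by 0.64 (SE 0.15, 0.0571). Mrpl39 read 82.7 and 86.0 in EV, 89.1 and 66.2 in Nanog and 44.4 and 55.4 in Nanog+Sin3a, a difference from EV of -0.77 (SE 0.21, adjusted p = 0.0803). At an unadjusted p under 0.05 there were 17 of 73 (23.3%), against 26.1% of all features, and the median was -0.00.

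On the bright features, 8 of 57 genes passed for Nanog+Sin3a against EV (14.0%), against 17.0% of features. Of the members 5 were higher and 3 lower, against 8.09% and 8.96% of features. Those higher were Mrps34 (0.64, adjusted p = 0.00244), Mrpl1 (0.47), Mrpl2 (0.42), Mrpl42 (0.35) and Mrpl38 (0.31). Mrpl1, which forms the mobile stalk where tRNA leaves, read 705.5 and 529 in EV and 781.5 and 920.3 in Nanog+Sin3a; its dimmer second probe went the other way (-0.33). Those lower were Mrpl52 (-0.58, adjusted p = 0.0155), Mrpl43 (-0.44) and Mrps6 (-0.39). Mrps6, a platform protein of the small subunit, read 1109 and 1112 in EV and 808 and 894 in Nanog+Sin3a. The second probe of Mrpl38 also went the other way (-0.10), and that of Mrpl43 gave -0.03.

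Across all members, 43 other probes of 29 genes were above the floor in at least 2 arrays. In Nanog+Sin3a against EV, 30 of the 43 had the same sign as the brightest probe of their gene, with a median gap of 0.23 between the differences and a largest gap of 1.20. In Nanog against EV it was 24 of 43, and in Nanog+Sin3a against Nanog 25.

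**Figure D4:**
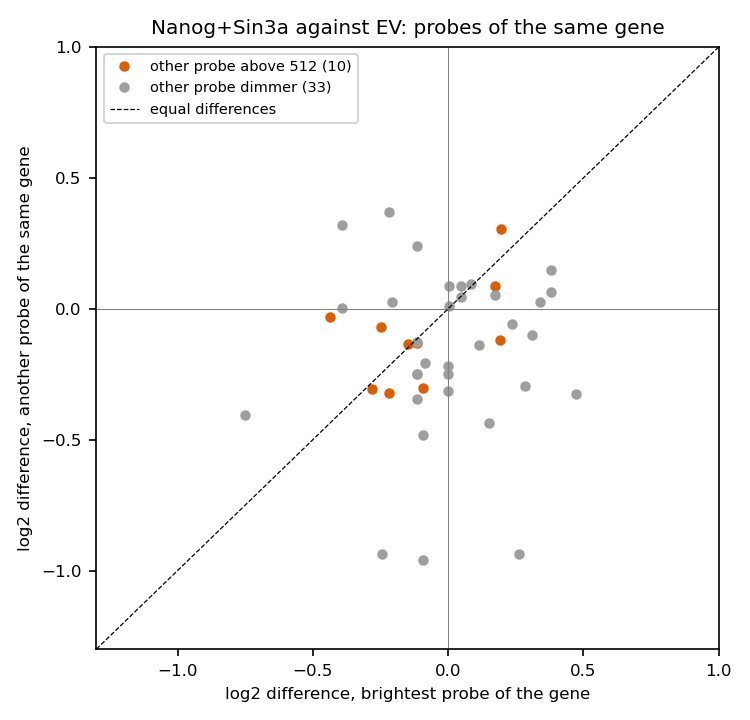
Log2 difference of Nanog+Sin3a against EV for 43 further probes (vertical axis) against that of the brightest probe of the same gene (horizontal axis); the dashed line marks equal differences. Of the 43 points 30 have the same sign on both axes, and the 10 probes that are bright (orange) lie closer to the line than the dimmer ones with the widest gaps.

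Adding Sin3a to Nanog (Nanog+Sin3a against Nanog) changed 0 of 73 genes in 7 arrays, where 2 of 12806 features passed (0.0156%). At an unadjusted p under 0.05 there were 6 (8.22%), against 11% of all features, and on bright features 0 of 57 passed, against 0.261%. The 3 largest differences were those of Mrpl39 (-0.63, SE 0.21, adjusted p = 0.354), Mrpl50 (0.46, SE 0.13, 0.297) and Mrps2 (-0.42, SE 0.12, 0.297). Mrpl50 read 1195 and 923 in Nanog and 1433 and 1466 in Nanog+Sin3a, with EV between these at 1288 and 1198. In all 3 the arrays of the 2 groups did not overlap, which was so for 30.1% of the 73 genes and 34.8% of all features.

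Sin3a against EV asks what Sin3a alone changes, and could be read for the bright genes only. None of 57 passed, where 4 of 2300 features did (0.174%), and 2 had an unadjusted p under 0.05 (3.51%), against 7.83%. The largest differences were those of Mrpl12, the stalk protein that contacts translation factors, Mrpl14 and Mrpl18. Mrpl12 read 2720.2 and 2955 in EV and 2322 and 2205 in Sin3a (-0.33, SE 0.10, adjusted p = 0.398). Mrpl14 differed by -0.30 (SE 0.12, 0.571) and Mrpl18 by -0.28 (SE 0.15, 0.692). Differences lay between -0.33 and 0.26, with 34 genes below 0 and 23 above and a median of -0.03, against 0.00 for all bright features.

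Nanog+Sin3a against Sin3a asks what Nanog changes in cells with Sin3a. Of the 57 bright genes, 3 passed (5.26%), where 11.6% of features did, 5.61% higher and 5.96% lower. Mrps34 (0.50, SE 0.13, adjusted p = 0.0158) and Mrps11 (0.42, SE 0.13, 0.0368) were higher, and Mrpl43 (-0.40, SE 0.13, 0.0471) was lower, with arrays apart in all 3. Arrays were apart in 57.9% of the 57 genes and in 59.4% of features. Mrps11's other bright probe gave 0.30 and that of Mrpl43 -0.05. The count was 1 without either EV array, 7 without either Nanog array, and 0 without either Sin3a array or the first Nanog+Sin3a array. All bright features called moved from 3.52% without the second Sin3a array to 19.4% without the first Nanog array.

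The interaction, which takes the effect of Sin3a in cells with Nanog less its effect in cells lacking it, passed in 0 of 57 genes, where 1 of 2300 features passed (0.0435%). At an unadjusted p under 0.05 there were 3 (5.26%), against 6.52%. The largest values were 0.44 for Mrpl50 (SE 0.17, adjusted p = 0.713), 0.41 for Mrpl47 (SE 0.18, 0.713) and -0.35 for Mrpl49 (SE 0.19, 0.748). All 57 intervals lay within -1 and 1.

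Genes that work with the mitochondrial ribosome were counted in the same fits. In Nanog+Sin3a against EV (7 arrays), 1 of 16 translation factors fell, Gfm1, the elongation factor G (-0.82, SE 0.16, adjusted p = 0.0361), and 1 of 21 assembly genes fell, Mterf3 (-0.50, SE 0.09, 0.0306). None passed among 4 mitoribosome proteins with other symbols, 15 mitochondrial aminoacyl-tRNA synthetases, 11 genes of mitochondrial DNA maintenance and transcription, or 7 nuclear regulators. The respiratory chain and ATP synthase list, taken by symbol, includes complex I assembly factors such as Ndufaf2. It had 1 higher, Ndufa9 (0.70), and 6 lower of 77 (9.09%). The largest falls were Atp5md (-1.47), Cox7b (-1.15) and Ndufb4 (-1.08). The cytosolic ribosomal proteins had 1 higher and 1 lower of 57 (3.51%). Over all features 7.42% were called, and whether the lists differ from that share was not tested.

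In arrays with Nanog against arrays without, Slirp, which stabilises mitochondrial messages, was lower (-0.28, 1 of 2 bright translation factors, with arrays that overlapped), and Rbfa, a maturation factor of the small subunit, was higher (0.26, 1 of 7 assembly genes). The cytosolic ribosomal proteins had 7 higher and 7 lower of 50 (28.0%). The respiratory chain and ATP synthase had 9 and 10 of 56 (33.9%), beside 8 and 3 of 57 for the members (19.3%). Over all bright features 26.5% were called, and whether these shares differ was not tested. The lower genes of the respiratory chain list include the assembly factors Ndufaf2 (-0.42) and Ndufaf4 (-0.27). Of the neighbours that share a start region with a member and are not members, 15 were tested in 7 arrays and 0 passed for Nanog+Sin3a against EV. The nearest to the threshold was Cyb5rl, beside Mrpl37, at 0.65 (adjusted p = 0.0700), where Mrpl37 was at 0.24. Twnk was at -0.30 and Mrpl43 at -0.44, while Sars2 was at 0.71 and Mrps12 at -0.09. Klc4, beside Mrpl2, was at 0.33 in this comparison and at -0.17 in Nanog against EV, where Mrpl2 was at 0.42 and 0.45.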

How the data were processed

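Total RNA was read on 8 Illumina arrays. The authors deposited 1 linear intensity per probe and array, with some values below 0. GenomeStudio is the tool that the submitters' processing notes name; its version, background correction and normalization are not given in the sources used here, and none was added. Values were raised to 16, converted to log2 and tested in R 4.3.3 with limma 3.58.1 (lmFit, eBayes with an intensity trend, 1 coefficient per group). The 7-array fit held 12806 features above 16 in at least 2 arrays (3 residual degrees of freedom) and the bright fit 2300 (4 residual degrees of freedom). Of 45281 probes, 34885 had 1 symbol, 18 several and 10378 none. The number of arrays limits the precision. The members, gene lists and tests were chosen with earlier results of these data known. Named genes were Nanog, Sin3a, members that passed with arrays apart (up to 10 each way), otherwise the 3 largest differences, the 5 strongest and 5 weakest probes, members whose probes disagree, and up to 4 called genes per other list. Alternatives covered arrays, features, floor, replicate block, scaling, trend, probes and leaving out each array. The procedure was tested on simulated data.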

Additional observations from a re-analysis of the deposited data

How the results depend on the processing

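Each group had 2 arrays, and dim genes were not read for comparisons with Sin3a. None of the 15 calls tested in the 3 comparisons with calls reversed under the alternatives run; the further calls on bright features for Nanog against EV and Nanog+Sin3a against EV were not rerun. Mrps34 between arrays with and without Nanog held in 17 of 18, failing over all features of 8 arrays (adjusted p = 0.0676), and Mrpl16 in Nanog+Sin3a against EV in 6 of 16. The weakest others were Mrps26 (7 of 18), Mrps22 (8 of 17) and Mrpl3 (10 of 18) with Nanog, and Mrpl43 (7 of 17) and Mrps11 (9 of 17) against Sin3a. The cause of the changes below was not tested.

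Members called for Nanog against EV numbered 0, but 2 on bright features, where the share of features called went from 2.69% to 9.65%. For Nanog+Sin3a against EV the count of 1 became 0 over all 8 arrays, without a filter, or without the intensity trend. It was 8 on bright features, 4 with a floor of 32 and 3 with median centring. In that order, 0.257%, 0.387%, 5.97%, 17.0%, 13.3% and 8.27% of features were called, against 7.42% as reported. For Nanog+Sin3a against Sin3a, 3 became 0 over all features of 8 arrays and 1 above a log2 value of 10. All features called fell there from 11.6% to 0.147% and 10.6%. For arrays with Nanog, 11 became 0 and 6 under the same settings, where all features called fell from 26.5% to 1.03% and 25.3%. Leaving out each array gave 0 to 0, 0 to 1, 0 to 7 and 1 to 15 in these 4 comparisons.

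Replicate numbers showed no shared shift between groups, which does not settle whether the arrays were handled in pairs. The difference between the 2 arrays of a group, over the 2300 bright features, correlated between groups at -0.17 to 0.06. With a replicate block the counts were 0, 0, 2 and 9, where 1.55%, 4.13%, 11% and 24.3% of features were called. With a crossed block (the Nanog arrays exchanged, since 2 correlations were under -0.1, chosen after seeing the data) the counts were 1, 3, 3 and 11. The shares of features called were then 2.52%, 6.87%, 14.2% and 28.7%.

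The members' median for Sin3a against EV was -0.075 over all features of 8 arrays and 0.026 above log2 10. For Nanog+Sin3a against Sin3a it was 0.13, 0.019 over 7 arrays and 0.10 above log2 10. For arrays with Nanog these were 0.0615, 0.035 and 0.0615, and for the interaction -0.0017 over 7 arrays and -0.028 above log2 10. Leaving out each array moved the medians between -0.024 and 0.036 (Nanog against EV), -0.038 and 0.041 (Nanog+Sin3a against EV), -0.048 and 0.0032 (Nanog+Sin3a against Nanog), 0.047 and 0.068 (Nanog+Sin3a against Sin3a), -0.0052 and 0.049 (interaction), and -0.0021 and 0.041 (arrays with Nanog).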
